A study of Mus musculus with 63 samples.

Results

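The genes that bring proteins into the endoplasmic reticulum (ER), fold them there and remove those that misfold were followed through all RNA-Seq libraries of a study of the Mediator kinases CDK8 and CDK19 in the mouse small intestine. The 40 genes were taken by name from the known machinery of the ER, and all 40 were found among the 54752 genes of the count tables. By role they comprised 10 chaperones and co-chaperones, 7 disulfide isomerases and lectin chaperones, 12 subunits of the translocon, signal peptidase and the translocon-associated TRAP complex, 8 genes of ER-associated degradation (ERAD) and 3 stress sensors.

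Secreted and membrane proteins enter the ER through the SEC61 channel, lose their signal peptide to signal peptidase, and are folded by chaperones such as BiP (Hspa5) and by disulfide isomerases, while ERAD returns failed proteins to the cytosol for destruction. The sensors IRE1 (Ern1 and Ern2), ATF6 and PERK report an overload and start the unfolded protein response (UPR), which raises the transcription of many of these genes. Paneth and goblet cells, which secrete antimicrobial peptides and mucus, carry a heavy secretory load, and Ern2 encodes IRE1β, a form of IRE1 known from mucus-producing epithelia.

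The libraries formed 19 groups of 3 of C57BL/6 strain mice, from small intestinal epithelium and from organoids, which are epithelial cultures grown from crypts. Cre was expressed as VillinCreERT2, a tamoxifen-dependent recombinase active in the intestinal epithelium, and floxed Cdk8 was deleted with 100 nM 4-OHT for 24 h in organoids, with 0.001% EtOH as vehicle, or with 5 daily tamoxifen injections of 80 mg/kg in mice. Organoids collected 7 days after 4-OHT were VillinCreERT2 and C57BL/6 as controls, CDK8iIEC-KO (VillinCreERT2; Cdk8 fl/fl), Cdk8 fl/fl; Cdk19-/- without Cre, and CDK8iIEC-KO/Cdk19-/- (VillinCreERT2; Cdk8 fl/fl; Cdk19-/-). The last genotype was also collected 3, 5, 7 and 10 days after EtOH or 4-OHT, and after 10 days in Wnt3-conditioned medium (Wnt3-CM). By the labels these EtOH controls were already Cdk19-/-, so that 4-OHT against EtOH compares deletion of Cdk8 on that background. A further line carried Cdk19 as 1 null and 1 kinase-dead (D173A) allele and was treated with EtOH or 4-OHT. Its columns carry a line number that the labels do not mention and were assigned by elimination. The labels give 7 days for this line and 10 days for Wnt3-CM. Intestinal epithelial cells (IECs) came from VillinCreERT2 and CDK8iIEC-KO/Cdk19-/- mice 14 days after the last injection. The organoid libraries of a group are not stated to be separate cultures or animals, so that p-values measure the spread between libraries, and in the comparison of 5 groups a line and its genotype cannot be told apart.

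Totals ran from 15485959 to 32909565 counts per library. Counts over the whole of Cdk8 and Cdk19 gave no clear check of the genotypes, which are taken from the labels. Cdk19 still had 27.6 to 27.8 CPM, read counts scaled to library size, in CDK8iIEC-KO/Cdk19-/- against 27.2 to 29.1 CPM in VillinCreERT2 organoids, and 24.7 to 26.0 CPM in Cdk8 fl/fl; Cdk19-/- against 28.7 to 34.5 CPM in C57BL/6 organoids. Cdk8 was at 42.8 to 47.2 CPM with 4-OHT against 47.7 to 50.2 CPM with EtOH at day 7, apart but close, and at 53.3 to 57.5 against 53.9 to 57.1 CPM at day 10, where they overlapped, and the treatments also overlapped at days 3 and 5, in Wnt3-CM and in the kinase-dead line. In EtOH libraries labelled Cdk19-/-, Cdk19 was at 35.6 to 47.0 CPM in the time course and 38.1 to 40.3 CPM in Wnt3-CM, above the C57BL/6 organoids of another table. Cdk8 was not lower in CDK8iIEC-KO (78.0 to 83.1 CPM) than in VillinCreERT2 organoids (71.9 to 80.8 CPM), nor in IECs of CDK8iIEC-KO/Cdk19-/- (49.1 to 52.5 CPM) than of VillinCreERT2 mice (45.7 to 52.8 CPM). In CDK8iIEC-KO/Cdk19-/- organoids Cdk8 was lower than in VillinCreERT2 organoids, at 65.1 to 67.2 CPM, but still well expressed. Of the cell type markers, 7 Paneth cell genes summed to 2832 to 2953 CPM in VillinCreERT2 and to 827 to 861 CPM in CDK8iIEC-KO/Cdk19-/- organoids, and 8 goblet cell genes to 3396 to 3531 and 2063 to 2283 CPM. The 4 epithelial genes (Epcam, Vil1, Cdh1 and Krt8) were present in every group, at sums from 4339 to 8472 CPM. Plasma and B cell genes summed to at most 1.90 CPM in organoids but reached 1524 CPM in IECs, as given with the IEC values.

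Per kilobase of exon, the 40 genes spanned a wide range in VillinCreERT2 organoids. P4hb, the β subunit of prolyl 4-hydroxylase and itself a disulfide isomerase, was the highest with a mean of 958 CPM per kb. It was followed by the lectin chaperone Calr at 377, the isomerase Pdia3 at 254, Hspa5 at 193 and Hsp90b1, the HSP90 of the ER, at 171 CPM per kb. Both IRE1 genes lay near the low end, Ern1 at 8.49 and Ern2 at 8.46 CPM per kb, and Derl3, a derlin of the ERAD machinery, was the lowest at 0.477 CPM per kb. The summed level of all 40 genes was 11096 to 11721 CPM in VillinCreERT2 and 11342 to 11582 CPM in CDK8iIEC-KO/Cdk19-/- organoids, ranges that overlapped. High genes weigh most in this sum, P4hb above all with a mean of 2742 CPM in VillinCreERT2 organoids.

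The UPR acts on many of these genes through the ER stress response element (ERSE), a CCAAT box followed after 9 bases by CCACG. RefSeq promoter windows on GRCm38.p6, from 250 bases before to 50 bases after each start, were found for 31 of the 40 genes. An ERSE on either strand was present in 9 of their 32 windows (28.1%) and in 39 of all 32851 windows (0.119%). The 9 genes were Hspa5, Hsp90b1 (with 2 matches), Dnajc3, Creld2, Pdia6, Calr, Canx, Derl3 and Syvn1. The shorter ERSE-II (ATTGG, any base, CCACG), printed for Herpud1, was found in the windows of Herpud1 and Dnajb11, and in 12 windows (0.0365%) in all. The CCACG part alone, which an ERSE contains, stood in 81.2% of the windows of these genes and in 32.8% of all windows. For Hspa5 and Derl3 the 250 bases before the start are shown, because BiP is the common read-out of the UPR and Derl3 fell most after loss of both kinases. The shorter stretches belong to genes of the results that follow. Capitals mark the parts of the element, which read CGTGG and ATTGG where it lies on the opposite strand. Positions are on GRCm38.p6.
Hspa5, chr2:34771840-34772089, plus strand: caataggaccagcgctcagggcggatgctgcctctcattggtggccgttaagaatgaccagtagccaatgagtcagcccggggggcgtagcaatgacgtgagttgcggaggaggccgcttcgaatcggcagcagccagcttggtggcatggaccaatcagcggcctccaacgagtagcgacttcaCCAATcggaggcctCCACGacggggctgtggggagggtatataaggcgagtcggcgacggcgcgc
Derl3, chr10:75893148-75893397, plus strand: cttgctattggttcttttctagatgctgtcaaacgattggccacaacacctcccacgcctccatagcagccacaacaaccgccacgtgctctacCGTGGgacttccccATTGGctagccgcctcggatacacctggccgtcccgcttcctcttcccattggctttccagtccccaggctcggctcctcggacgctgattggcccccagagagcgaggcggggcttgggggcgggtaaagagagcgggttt
Dnajc3, chr14:118937807-118937865, plus strand: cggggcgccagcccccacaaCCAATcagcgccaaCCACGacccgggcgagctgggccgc
Creld2, chr15:88819500-88819558, plus strand: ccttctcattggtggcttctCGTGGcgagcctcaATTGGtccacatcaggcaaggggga
Pdia6, chr12:17266471-17266529, plus strand: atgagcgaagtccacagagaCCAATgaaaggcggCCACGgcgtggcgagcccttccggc
Canx, chr11:50325780-50325838, minus strand: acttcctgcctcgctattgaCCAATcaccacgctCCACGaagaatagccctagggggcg
Calr, chr8:84847055-84847113, minus strand: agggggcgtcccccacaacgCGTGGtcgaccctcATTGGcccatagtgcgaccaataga
Syvn1, chr19:6046512-6046570, plus strand: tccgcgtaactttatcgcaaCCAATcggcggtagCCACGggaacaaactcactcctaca
Herpud1, chr8:94386357-94386407, plus strand: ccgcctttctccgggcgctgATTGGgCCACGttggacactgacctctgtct

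Loss of both kinases lowered 2 of the 40 genes in organoids at day 7, Ern2 and the barely expressed Derl3, and raised none. A gene was counted as a DEG when its adjusted p was under 0.05 and its fold change over 1.5. By that rule 19.4% of the 15125 genes tested were DEGs, against 2 of the 40. The median log2 fold change of the 40 genes was 0.01, beside 0.00 over all genes.

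Ern2 (chr7:122169893-122186207 on GRCm38) stood at 25.3, 26.0 and 23.9 CPM in VillinCreERT2 and at 13.8, 11.6 and 11.2 CPM in CDK8iIEC-KO/Cdk19-/- organoids, 2.05-fold lower (log2 fold change -1.03 ± 0.13 SE, adjusted p = 7.15e-07). The groups did not overlap, and the lowest control library held more Ern2 than any CDK8iIEC-KO/Cdk19-/- library. Derl3 (chr10:75893413-75895941) stood at 1.04, 1.01 and 0.800 CPM against 0.331, 0.339 and 0.277 CPM (log2 fold change -1.57 ± 0.36 SE, adjusted p = 0.000634). These groups did not overlap either, but the gene was barely expressed, with 6, 6 and 5 counts in the CDK8iIEC-KO/Cdk19-/- libraries. Derl3 passed the filter on low counts only through other groups, where it was higher, so its call is not support.

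The genes of folding and translocation stayed within 1.5-fold. Hspa5 was at 806, 851 and 794 CPM and at 828, 838 and 868 CPM (log2 fold change 0.05 ± 0.05 SE, adjusted p = 0.439). Sec61b, a subunit of the channel, was at 68.3, 62.9 and 66.1 and 68.9, 62.4 and 67.4 CPM (log2 fold change 0.01 ± 0.06 SE, adjusted p = 0.906). Among the remaining genes the adjusted p was under 0.05 for 17 but no fold reached 1.5, from 0.42 for Manf, a secreted ER stress factor, to -0.35 for Dnajc10, an ER reductase. The median was 0.03 for the chaperones, 0.03 for the isomerases, 0.14 for the translocon group, 0.00 for ERAD and -0.31 for the 3 sensors, of which Ern1 (-0.24, adjusted p = 0.00189) and Atf6 (-0.31, adjusted p = 0.000313) stayed under 1.5-fold. In the same libraries all 7 Paneth cell genes and 4 of 8 goblet cell genes fell, and in bulk RNA fewer cells of a type and less RNA per cell cannot be told apart. The part of cell composition in the fall of Ern2 and Derl3 was not tested.

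**Figure D1:**
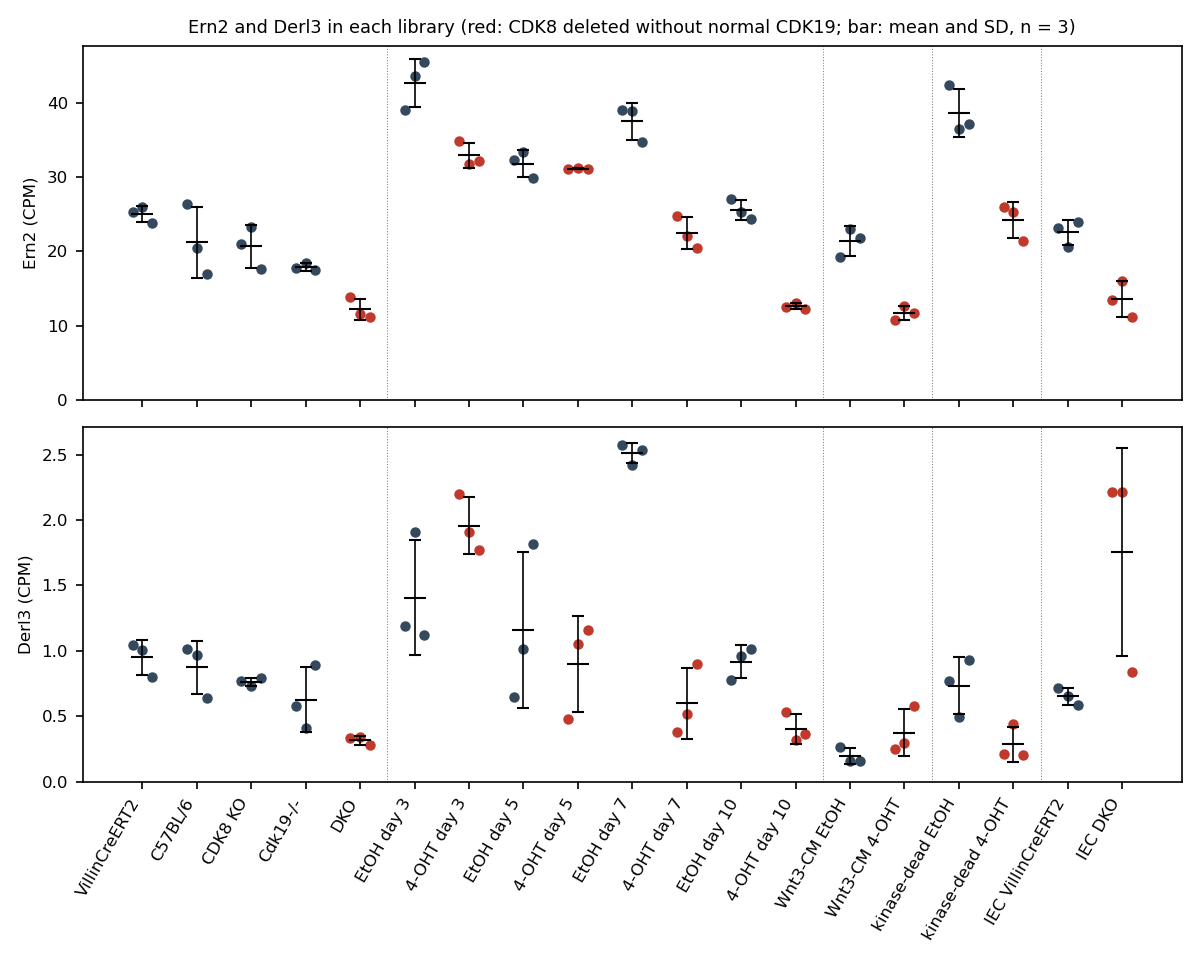
CPM of Ern2 (top) and Derl3 (bottom) in each library of the 19 groups, with the mean and SD of 3 libraries. Libraries labelled as deleted for Cdk8 without a normal Cdk19 are red, and the mean of Ern2 is lower in them than in their controls in every pair, by little at day 5. The mean of Derl3 is lower in them with the combined loss, at days 5, 7 and 10 and in the kinase-dead line, but higher at day 3, in IECs and in Wnt3-CM, where it was not tested, and days 3 and 5 and IECs missed the test.

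Loss of either kinase alone moved none of the 40 genes past both cutoffs together. In CDK8iIEC-KO against VillinCreERT2 organoids 7.23% of all genes were DEGs and 0 of the 40, although 14 had an unadjusted and 13 an adjusted p under 0.05 (edgeR), and DESeq2 and limma-voom also gave 0. The widest positive change was that of the isomerase Pdia5, from 22.2, 22.8 and 21.4 to 28.4, 27.5 and 30.2 CPM (log2 fold change 0.37 ± 0.08 SE, adjusted p = 0.000758). The widest negative change was that of Dnajb9, a co-chaperone of BiP, from 71.3, 74.5 and 70.3 to 54.7, 55.0 and 57.5 CPM (log2 fold change -0.37 ± 0.06 SE, adjusted p = 4.14e-05). Both pairs of groups were apart, yet by less than 1.5-fold. Log2 fold changes were -0.02 for Hspa5, 0.03 for Sec61b, -0.32 for Derl3 (adjusted p = 0.438) and -0.28 for Ern2 (adjusted p = 0.0765). Ern2 was at 21.0, 23.3 and 17.6 CPM in CDK8iIEC-KO organoids, below each of the 3 control libraries.

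In Cdk8 fl/fl; Cdk19-/- against C57BL/6 organoids 5.25% of all genes were DEGs and again 0 of the 40. DESeq2 and limma-voom gave 0 as well, while 20 had an unadjusted and 11 an adjusted p under 0.05 (edgeR). The median of the 40 was 0.09 beside -0.01 over all genes. Sec11c, a catalytic subunit of signal peptidase, had the widest positive change, from 44.3, 44.3 and 46.0 to 54.0, 55.4 and 52.9 CPM (log2 fold change 0.27 ± 0.07 SE, adjusted p = 0.00633). Hspa5 was close behind, at 724, 694 and 715 against 850.2, 874 and 844 CPM (log2 fold change 0.27 ± 0.05 SE, adjusted p = 0.000484). In both genes every library labelled Cdk19-/- exceeded every C57BL/6 library. Derl3 had the widest negative change, -0.46 with adjusted p = 0.384. The change was 0.13 for Sec61b and -0.24 for Ern2 (adjusted p = 0.22), whose C57BL/6 libraries spread from 16.9 to 26.3 CPM.

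The control lines differed from each other in more genes than either single loss, with 26.4% DEGs between C57BL/6 and VillinCreERT2 organoids, but 0 of the 40 passed both cutoffs. Here 24 of the 40 had an unadjusted and 23 an adjusted p under 0.05 (edgeR) and DESeq2 and limma-voom gave 0. Syvn1, the ubiquitin ligase HRD1 at the centre of ERAD, was the lowest, at 74.1, 74.4 and 82.1 CPM in C57BL/6 against 111, 119 and 111 CPM (log2 fold change -0.56 ± 0.06 SE, adjusted p = 1.79e-08), and it passed both cutoffs at -0.61 once the third C57BL/6 library was left out. The sensor Atf6 did so at -0.65 without the first C57BL/6 library. Spcs3, a signal peptidase subunit, was the highest at 0.34. The other changes were -0.20 for Hspa5, -0.06 for Sec61b, -0.13 for Derl3 and -0.25 for Ern2. These comparisons and that of the combined loss share control libraries.

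**Figure D2:**
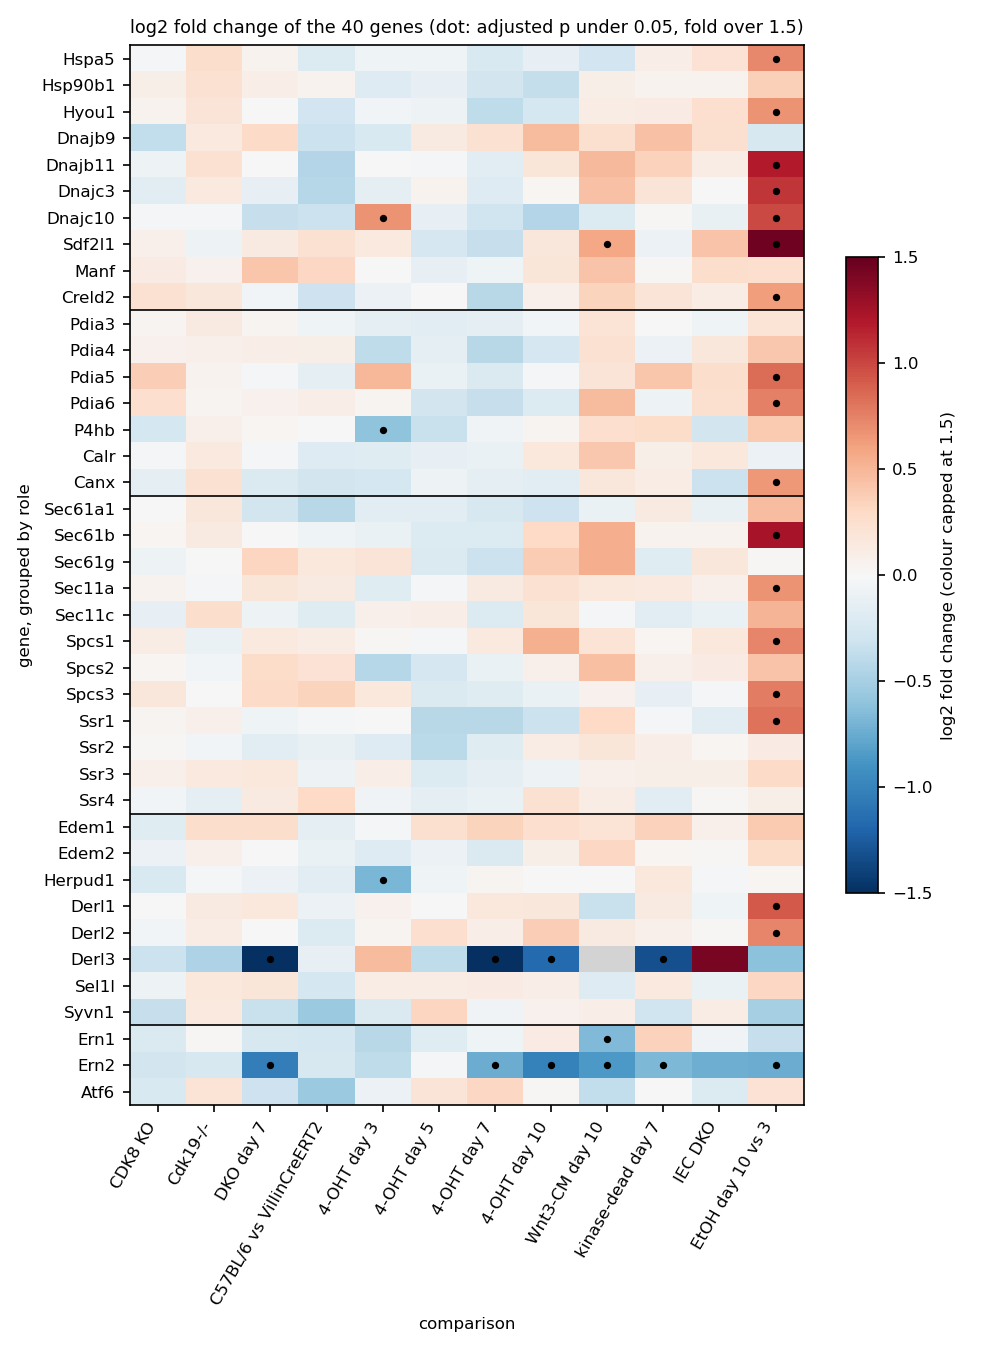
Log2 fold change (colour, capped at 1.5) of the 40 genes (rows, grouped by role) in 12 comparisons (columns). A dot marks a DEG and grey a gene not tested, and dots stand in the row of Ern2 for 5 of the deletions, in that of Derl3 for 4, and in the last column for 18 genes.

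The time course followed EtOH and 4-OHT cultures of the same genotype. At day 3 genes of folding and ERAD had changed that were not DEGs on later days. DEGs were 12.4% of the 15447 genes tested and 3 of the 40, with Herpud1 and P4hb lower and Dnajc10 higher.

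Herpud1, an ERAD scaffold that the UPR induces, was at 144, 138 and 137 CPM with EtOH and at 86.9, 86.4 and 87.1 CPM with 4-OHT (log2 fold change -0.69 ± 0.06 SE, adjusted p = 5.41e-10). P4hb was at 1643, 1448 and 1537 against 998, 1057 and 996 CPM (log2 fold change -0.60 ± 0.06 SE, adjusted p = 1.51e-08). Dnajc10 was at 41.4, 39.0 and 39.2 against 65.3, 59.2 and 66.5 CPM (log2 fold change 0.67 ± 0.09 SE, adjusted p = 2.66e-07). None of these pairs overlapped. The fold of P4hb lay close to 1.5, and fell under it without the third 4-OHT library (-0.57) or without the first EtOH library (-0.55).

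Hspa5 (log2 fold change -0.06 ± 0.07 SE, adjusted p = 0.533) and Sec61b (log2 fold change -0.10 ± 0.08 SE, adjusted p = 0.367) were not DEGs at day 3. Derl3 was at 1.19, 1.91 and 1.12 against 2.20, 1.91 and 1.77 CPM, overlapping groups (log2 fold change 0.47 ± 0.31 SE, adjusted p = 0.249). Ern2 was lower by less than 1.5-fold, at 39.1, 43.6 and 45.4 against 34.9, 31.8 and 32.1 CPM (log2 fold change -0.38 ± 0.08 SE, adjusted p = 0.000308). Paneth cell genes had not fallen at this time, with sums of 3686 to 4311 CPM with EtOH and 4018 to 4790.3 CPM with 4-OHT, whereas 7 of 8 enterocyte genes were lower with a median of -1.23. The part of the enterocyte genes in these changes was not tested.

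At day 5, 0 of the 40 genes were DEGs, against 13.2% of all genes, although 16 had an unadjusted p under 0.05 (edgeR), and DESeq2 and limma-voom gave 0 too. Herpud1 was at 139, 128 and 141 CPM with EtOH and 132, 135 and 123 CPM with 4-OHT. The widest positive change was that of Syvn1 (log2 fold change 0.32 ± 0.09 SE, adjusted p = 0.00707) and the widest negative change that of Ssr1, a TRAP subunit, from 212, 226 and 254 to 161, 174 and 182 CPM (log2 fold change -0.42 ± 0.07 SE, adjusted p = 1.35e-05). Ern2 was at 32.3, 33.4 and 29.8 and 31.1, 31.2 and 31.1 CPM (log2 fold change -0.03 ± 0.08 SE, adjusted p = 0.793), while all 7 Paneth cell genes had already fallen, with a median of -1.10. Hspa5 (-0.07), Sec61b (-0.21) and Derl3 (-0.38, adjusted p = 0.424) were within 1.5-fold.

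At day 7 Ern2 and Derl3 fell, 2 of the 40 genes against 18.3% of all. Ern2 was at 39.1, 38.9 and 34.7 CPM with EtOH and 24.7, 22.1 and 20.5 CPM with 4-OHT (log2 fold change -0.74 ± 0.08 SE, adjusted p = 1.3e-08), groups set well apart. Derl3 was at 2.57, 2.42 and 2.54 against 0.377, 0.515 and 0.901 CPM (log2 fold change -2.06 ± 0.34 SE, adjusted p = 1.37e-05), the widest change of any of the 40 genes among the deletions. With 4-OHT it had 7, 10 and 17 counts. It passed the filter on low counts only through groups where it was higher, so its call is not support. The second EtOH library held 42.7 CPM of mesenchyme genes against 1.36 and 1.37 CPM in the others, with Ern2 and Derl3 at like levels. The Paneth cell sum was 1822 to 2028 CPM with 4-OHT against 4903 to 5932 CPM and the goblet cell sum 2842 to 3187 against 3578 to 3847 CPM, and their part was not tested. The medians of the chaperones and of the isomerases were -0.25 and -0.15, beside -0.01 over all genes. Hspa5 was at 487, 522 and 521 against 399, 427 and 479.6 CPM (log2 fold change -0.23 ± 0.07 SE, adjusted p = 0.00836), and Sec61b was at -0.20 (adjusted p = 0.0355).

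At day 10 the same genes, Ern2 and Derl3, were the 2 DEGs of the 40, against 15.8% of all genes. Ern2 was at 27.1, 25.3 and 24.4 CPM with EtOH and 12.6, 13.0 and 12.3 CPM with 4-OHT, 2.03-fold lower (log2 fold change -1.02 ± 0.09 SE, adjusted p = 1.15e-10). Derl3 was at 0.775, 0.961 and 1.01 against 0.533, 0.316 and 0.361 CPM (log2 fold change -1.17 ± 0.42 SE, adjusted p = 0.0244). The 4-OHT values of both genes lay under all EtOH values. Derl3 had 10, 6 and 7 counts with 4-OHT. As at day 7, it passed the filter on low counts only through groups where it was higher, so its call is not support. Without the first 4-OHT library Spcs1, a signal peptidase subunit, was higher past both cutoffs (0.60). The call of Derl3 rested on each of 4 libraries, the second and the third of either treatment, since without any of them the adjusted p rose to between 0.0582 and 0.0893. Hspa5 was at 591, 607 and 619.5 and 568, 560.0 and 539 CPM (log2 fold change -0.13 ± 0.07 SE, adjusted p = 0.151), and Sec61b was slightly higher with 4-OHT (log2 fold change 0.29 ± 0.08 SE, adjusted p = 0.00193). The median of the 40 genes was 0.07 beside 0.02 over all genes, at a time when the Paneth cell sum was 2128 to 2537 CPM with 4-OHT and 8156 to 8370.2 CPM with EtOH, and the goblet cell sum 2167 to 2417 and 3641 to 3962 CPM.

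The change of the response between days was tested directly. From day 3 to day 10, 26.3% of all genes and 6 of the 40 changed their response. Ern2 (-0.64 ± 0.12 SE, adjusted p = 3.85e-05), Derl3 (-1.65 ± 0.52 SE, adjusted p = 0.0109) and Dnajc10 (-1.12 ± 0.12 SE, adjusted p = 7.96e-09) became lower relative to EtOH on the log2 scale. Dnajc10 turned over, since at day 10 it was at 74.4, 83.7 and 80.3 CPM with EtOH and 55.0, 60.9 and 59.6 CPM with 4-OHT (-0.44). Herpud1 (0.69 ± 0.09 SE, adjusted p = 1.46e-07), P4hb (0.64 ± 0.09 SE, adjusted p = 1.19e-06) and Dnajb9 (0.70 ± 0.13 SE, adjusted p = 4.42e-05) became higher. Dnajb9 went from 49.0, 47.0 and 47.1 against 41.3, 42.3 and 38.5 CPM at day 3 to 43.0, 40.8 and 37.1 against 55.3, 56.2 and 55.9 CPM at day 10. Single libraries added Ern1 (0.59 to 0.64, without the second or the third 4-OHT or the first EtOH library of day 10) or Pdia5 (-0.59, without the first EtOH library of day 3). For Hspa5 the change was -0.06 (adjusted p = 0.643) and for Sec61b 0.39 (adjusted p = 0.00423).

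Between days 3 and 5, 3 of the 40 genes and 20.2% of all changed their response. Without the first 4-OHT library of day 3 Syvn1 also became higher (0.59). Dnajc10 changed by -0.80, Pdia5 by -0.60 and Herpud1 by 0.62. Pdia5 fell under 1.5-fold without the third 4-OHT or second EtOH library of day 3 or without the first 4-OHT or the third EtOH library of day 5, with values from -0.58 to -0.44. Herpud1 did so without the first EtOH library of day 3 or the second library of either treatment of day 5, with values down to 0.56. Over this step the log2 change was 0.00 for Hspa5, -0.11 for Sec61b, -0.85 for Derl3 (adjusted p = 0.158) and 0.34 for Ern2.

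Ern2 and Derl3 changed their response between days 5 and 7. Of all genes 8.81% changed their response over this step, and of the 40 only these 2, Ern2 by -0.71 ± 0.11 (SE; adjusted p = 8.73e-05) and Derl3 by -1.68 ± 0.50 (SE; adjusted p = 0.0189). The step of Derl3 missed the cutoff of 0.05 when any of 5 libraries was left out (the second or the third with 4-OHT or the first with EtOH at day 5, the first or second with 4-OHT at day 7), with adjusted p from 0.0527 to 0.0783. Hspa5 changed by -0.16 and Sec61b by 0.01 over the step. Between days 7 and 10 the count was 0 of the 40, against 6.41% of all genes, with 16 at an unadjusted and 8 at an adjusted p under 0.05 (edgeR) and 0 by DESeq2 and limma-voom. The widest steps were 0.89 for Derl3 (adjusted p = 0.306) and -0.30 for Atf6, with 0.50 for Sec61b, 0.10 for Hspa5 and -0.28 for Ern2. Sec61b passed both cutoffs at 0.61 without the third 4-OHT library of day 7, together with Sdf2l1 (0.66) and Creld2 (0.59), and without the first 4-OHT library of day 10 Sdf2l1 alone did so (0.60).

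**Figure D3:**
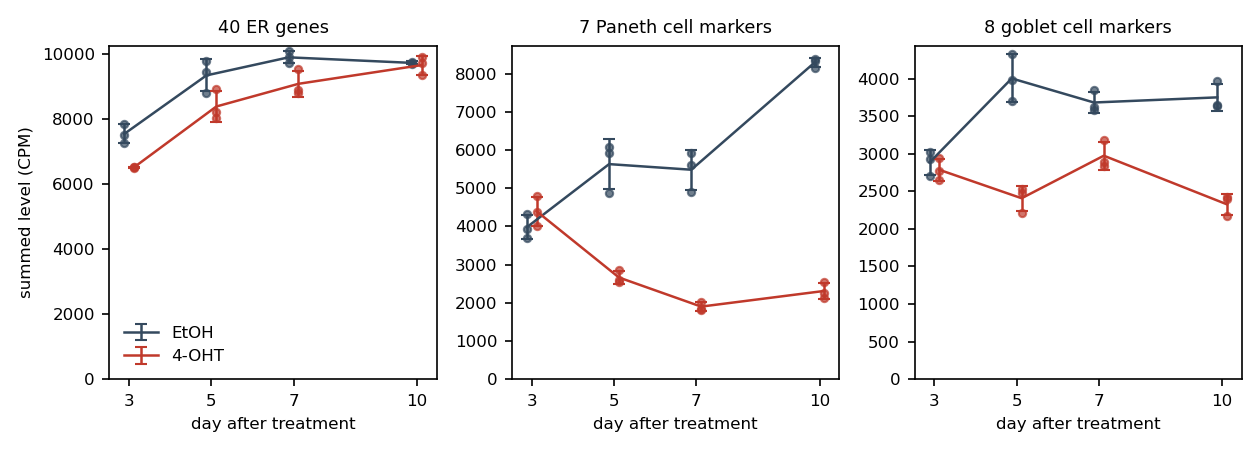
Summed CPM of the 40 ER genes (left), 7 Paneth cell markers (middle) and 8 goblet cell markers (right) by day in EtOH (blue) and 4-OHT (red) organoids, with each library and the mean and SD of 3. The Paneth sum at day 10 is 2128 to 2537 CPM with 4-OHT against 8156 to 8370.2 CPM, whereas the sums of the ER genes overlap at that day. The ER sums with 4-OHT lie under those with EtOH at days 3 and 7.

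Summed over the 40 genes, the level was 7258 to 7839 CPM at day 3 and 9665 to 9752 CPM at day 10 with EtOH, and 6482 to 6522 and 9326 to 9904 CPM with 4-OHT. At day 5 it was 8793 to 9766 CPM with EtOH and 8022 to 8900.5 CPM with 4-OHT, which overlapped. At day 7 every 4-OHT library (8799.9 to 9518 CPM) lay under every EtOH library (9698 to 10066 CPM), as at day 3, while at day 10 the treatments overlapped. Under both treatments every day 10 library exceeded every day 3 library. P4hb alone had a mean of 1543 CPM with EtOH and 1017 CPM with 4-OHT at day 3. The median log2 fold change of the 40 genes at that day was -0.07, beside -0.02 over all genes.

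In EtOH organoids between days 3 and 10, 17 of the 40 genes rose (42.5%) and 1 fell, where 16% of all genes tested rose and 38.4% changed in either direction. The median of the 40 was 0.42 beside -0.01 over all genes, and 34 of 40 were above 0. In the same libraries the Paneth cell sum went from 3686 to 4311 to 8156 to 8370.2 CPM (list median 0.42) and the goblet cell sum from 2701 to 3020.5 to 3641 to 3962 CPM (median 0.02), and their part was not tested. The day and the collection of the cultures cannot be told apart, and the EtOH libraries are the same as those behind the deletion responses of days 3 and 10.

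The chaperones rose most often, 7 of 10 with a median of 0.70. Sdf2l1, a partner of Dnajb11 in the BiP cycle, went from 18.5, 17.0 and 19.6 to 47.3, 52.2 and 51.4 CPM (log2 fold change 1.45 ± 0.10 SE, adjusted p = 3.94e-13). Dnajb11, a BiP co-chaperone that binds unfolded clients, went from 50.2, 49.3 and 47.3 to 117, 109 and 109.9 CPM (log2 fold change 1.19 ± 0.08 SE, adjusted p = 1.83e-13). Hspa5 went from 382, 363 and 362 to 591, 607 and 619.5 CPM (log2 fold change 0.72 ± 0.07 SE, adjusted p = 4.97e-10). Day 10 exceeded day 3 in every library of these 3 genes. Dnajc3 (1.07) and Dnajc10 (0.99), both J-domain partners of BiP, also rose, as did Hyou1, the large HSP70 that resets BiP (0.68), and Creld2 (0.63). Hsp90b1 (0.35), 15.7% of whose exon bases lie in other genes too, and Manf (0.25) stayed under 1.5-fold. Dnajb9 was the exception in direction, at 49.0, 47.0 and 47.1 and 43.0, 40.8 and 37.1 CPM (log2 fold change -0.24 ± 0.09 SE, adjusted p = 0.0193).

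Of the isomerases and lectin chaperones 3 of 7 rose, Pdia5 (log2 fold change 0.84 ± 0.12 SE, adjusted p = 8.48e-07), Pdia6 (log2 fold change 0.76 ± 0.09 SE, adjusted p = 4.04e-08) and the membrane lectin Canx (log2 fold change 0.65 ± 0.06 SE, adjusted p = 6.58e-10). Below 1.5-fold were P4hb (0.40), Pdia4 (0.41) and Pdia3 (0.21). The soluble lectin Calr, by contrast, was at 1138, 1054 and 1059.7 and 1075, 999 and 977 CPM (log2 fold change -0.09 ± 0.07 SE, adjusted p = 0.272). Of the translocon group 5 of 12 rose. Sec61b went from 39.1, 37.7 and 38.1 to 83.2, 92.2 and 96.0 CPM (log2 fold change 1.24 ± 0.08 SE, adjusted p = 7.9e-14), with Ssr1 (0.82), Spcs3 (0.77), Spcs1 (0.73) and Sec11a (0.67) after it. The exons of Spcs1 share 16.3% of their bases with other genes and those of Sec11a 8.21%, so that reads there are not certain to be theirs. The channel subunit Sec61a1 changed by 0.46 and Sec61g by 0.02, the peptidase subunits Sec11c by 0.51 and Spcs2 by 0.43, and the TRAP subunits Ssr3 by 0.28, Ssr2 by 0.12 and Ssr4 by 0.09.

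Of the ERAD genes the derlins Derl1 (log2 fold change 0.92 ± 0.06 SE, adjusted p = 1.18e-13) and Derl2 (log2 fold change 0.73 ± 0.07 SE, adjusted p = 9.88e-10) rose, while Derl3 was at -0.62 (adjusted p = 0.113). Herpud1 changed by 0.02, the mannosidase-like Edem1 and Edem2, which mark glycoproteins for removal, by 0.39 and 0.28, and Sel1l, the partner of HRD1, by 0.31. Syvn1 was lower by less than 1.5-fold (log2 fold change -0.49 ± 0.09 SE, adjusted p = 3.98e-05). Among the sensors Ern2 fell (log2 fold change -0.74 ± 0.08 SE, adjusted p = 2.49e-09), from 39.1, 43.6 and 45.4 to 27.1, 25.3 and 24.4 CPM, by way of 32.3, 33.4 and 29.8 CPM at day 5 and 39.1, 38.9 and 34.7 CPM at day 7, so not in a steady course. Ern1 and Atf6 changed by -0.35 and 0.22. Of the 9 genes with an ERSE in the window 5 rose (median 0.63), of the 22 whose window held none 9 rose (median 0.40), and of the 9 without a window 3 rose (median 0.46).

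**Figure D4:**
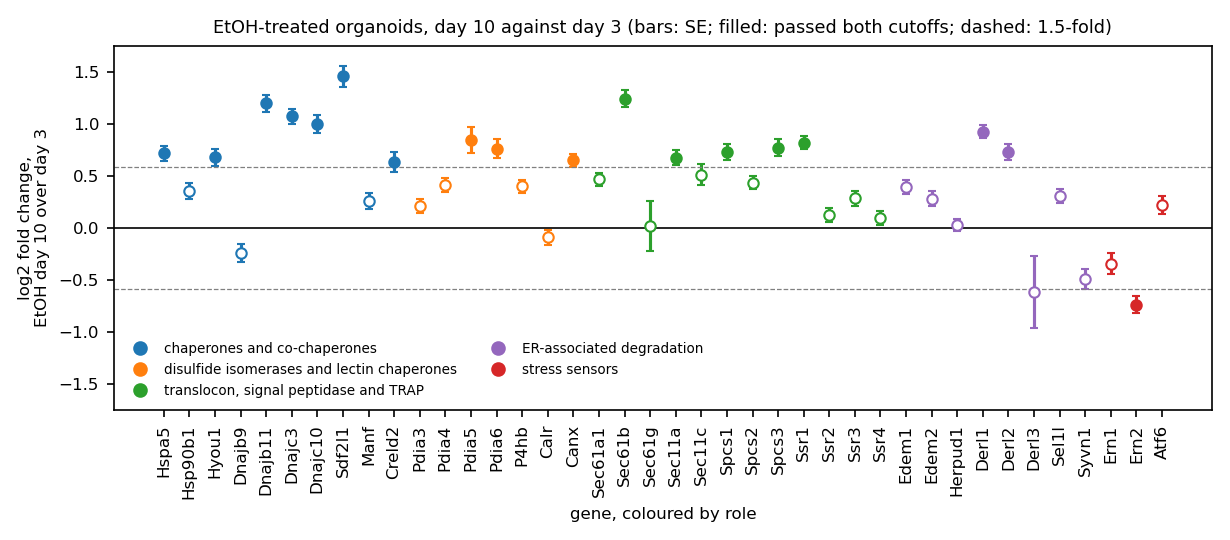
Log2 fold change with SE of the 40 genes between day 3 and day 10 in EtOH organoids, coloured by role, with filled points for DEGs and dashed lines at 1.5-fold. Sdf2l1 and Sec61b stand highest, at 1.45 and 1.24, and Ern2 is the filled point under 0.

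Wnt3-CM supplies Wnt ligand, which Paneth cells provide in the crypt, and Ern2 fell there too. Of 13745 genes tested 16.9% were DEGs, and of the 39 of the 40 that were tested Ern2 and Ern1 fell and Sdf2l1 rose. Ern2 was at 19.2, 23.1 and 21.9 CPM with EtOH and 10.8, 12.7 and 11.7 CPM with 4-OHT (log2 fold change -0.87 ± 0.10 SE, adjusted p = 4.62e-07). Ern1, the IRE1 gene expressed in most tissues, was at 65.4, 58.3 and 56.3 against 40.3, 37.9 and 35.7 CPM (log2 fold change -0.66 ± 0.08 SE, adjusted p = 4.66e-07). Sdf2l1 was at 27.5, 27.2 and 26.9 against 39.6, 40.9 and 42.0 CPM (log2 fold change 0.59 ± 0.07 SE, adjusted p = 1.24e-06). No pair overlapped. Without the first 4-OHT library Sec61g, a further channel subunit, also rose (0.73). Sdf2l1 dropped under 1.5-fold without the third library of 4-OHT (0.57) or of EtOH (0.58).

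Hspa5 was lower, at 667, 723 and 695 against 540.2, 566 and 599.9 CPM (log2 fold change -0.29 ± 0.07 SE, adjusted p = 0.00142). Its partner Dnajc10 changed by -0.20 (adjusted p = 0.0235), whereas the co-chaperones Dnajc3 (0.44, adjusted p = 6.9e-06) and Dnajb11 had positive changes. Dnajb11 was higher, at 85.4, 81.5 and 81.6 against 114, 114 and 119 CPM (log2 fold change 0.48 ± 0.06 SE, adjusted p = 2.36e-06). None of these reached 1.5-fold, and in Hspa5 and Dnajb11 the treatments did not overlap. Sec61b was also higher (log2 fold change 0.55 ± 0.07 SE, adjusted p = 2.75e-06) and became a DEG at 0.62 without the third EtOH library. All 7 isomerases and lectin chaperones were above 0 (median 0.22) and the median of the 39 was 0.18 beside 0.00 over all genes. Derl3 had too few counts to be tested, at 0.263, 0.157 and 0.158 and 0.248, 0.292 and 0.581 CPM. The summed level of the 40 genes was 7779 to 8177 CPM with EtOH and 8847 to 8952 CPM with 4-OHT. In the same libraries all 7 Paneth cell genes and 5 of 8 goblet cell genes fell and 5 of 8 enterocyte genes rose. The 4 epithelial genes summed to 8100 to 8441 CPM with EtOH and 6321 to 6918 CPM with 4-OHT, and 1 of them, Cdh1, fell. The part of these cells was not tested.

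Against the response in standard medium at day 10, tested in a joint fit of 12 libraries, 4 of the 40 genes and 13.3% of all responded differently. Pdia6 (0.67 ± 0.10 SE, adjusted p = 2.87e-05) and Ssr1 (0.62 ± 0.09 SE, adjusted p = 1.69e-05) responded more positively in Wnt3-CM on the log2 scale. Pdia6 was at 127, 140.3 and 137 against 176, 190.4 and 195 CPM in Wnt3-CM, and at 242, 268 and 248 against 199.9, 234 and 226 CPM in standard medium. Ern1 responded more negatively (-0.79 ± 0.14 SE, adjusted p = 0.000372), having been at 41.2, 33.2 and 34.7 and 46.3, 35.9 and 36.9 CPM in standard medium. The fourth gene was Derl3, with 2.11 ± 0.62 (SE; adjusted p = 0.0149), which had 3 to 12 counts in the Wnt3-CM libraries, failed the filter on low counts there and entered the joint fit only through standard medium. Its difference is therefore given as a value and supports nothing, and it was not past the cutoff without the third Wnt3-CM 4-OHT library (adjusted p = 0.0813). For Ern2 the difference between media was 0.15 ± 0.13 (SE; adjusted p = 0.426), for Hspa5 -0.17 and for Sec61b 0.25. The media stand in separate count tables, so that medium, table and any difference of run cannot be told apart in the levels. Only the response within each was compared.

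With kinase-dead CDK19 in place of none, deletion of CDK8 again lowered Ern2. With Derl3, 2 of the 40 genes were DEGs against 12.3% of 15457 genes. Ern2 was at 42.4, 36.4 and 37.2 CPM with EtOH and 26.0, 25.3 and 21.4 CPM with 4-OHT (log2 fold change -0.67 ± 0.10 SE, adjusted p = 0.000686). Derl3 was at 0.769, 0.497 and 0.932 against 0.207, 0.440 and 0.206 CPM (log2 fold change -1.32 ± 0.41 SE, adjusted p = 0.0374). For both genes the treatments did not overlap, but Derl3 had 6, 14 and 5 counts with 4-OHT and 22, 15 and 29 with EtOH, so that it passed the filter on low counts only through EtOH, where it was high, and its call is not support. The pancreatic acinar markers summed to 31.7 to 38.6 CPM with EtOH and 143 to 166 CPM with 4-OHT in this line, but Cpa1, Prss2 and Amy2a5 were at 0 in both groups, and of the 2 genes tested only Ctrb1 rose. Their sum was also higher with 4-OHT at day 5 (23.8 to 30.7 against 13.1 to 21.6 CPM), day 7 (28.5 to 34.0 against 12.8 to 17.5 CPM), day 10 (45.8 to 54.4 against 11.9 to 13.0 CPM) and in Wnt3-CM (9.48 to 16.7 against 0.579 to 1.68 CPM), but lower at day 3 (4.91 to 5.66 against 6.53 to 7.78 CPM). Among the lines it was higher in CDK8iIEC-KO (41.0 to 46.0 CPM) and CDK8iIEC-KO/Cdk19-/- (33.5 to 44.2 CPM) than in VillinCreERT2 organoids (17.4 to 28.4 CPM), and lower in Cdk8 fl/fl; Cdk19-/- (14.1 to 15.4 CPM) than in C57BL/6 organoids (23.7 to 38.8 CPM). Of the other markers in the kinase-dead line 6 of 7 Paneth cell genes fell and 1 rose, 2 of 8 goblet cell genes fell and 2 rose, and 5 of 8 enterocyte genes rose. The part of these cells was not tested. The call of Derl3 was lost without the first or the third library of either treatment, with adjusted p from 0.0769 to 0.147. Hspa5 (log2 fold change 0.10 ± 0.06 SE, adjusted p = 0.244) and Sec61b (log2 fold change 0.05 ± 0.10 SE, adjusted p = 0.724) were not DEGs. The largest positive changes were those of Dnajb9, from 62.2, 60.1 and 59.6 to 81.9, 82.4 and 83.0 CPM (0.44), and Pdia5 (0.41).

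The response with kinase-dead CDK19 was set against that with null CDK19 at day 7 in a joint fit, where 11.1% of 15636 genes and 2 of the 40 differed. Creld2, a secreted ER stress factor, differed by 0.62 ± 0.13 (SE; adjusted p = 0.00355) and Pdia5 by 0.62 ± 0.16 (SE; adjusted p = 0.0111) on the log2 scale. Both lay close to 1.5-fold and dropped under it when single libraries were left out, Creld2 at 0.55 to 0.58 (the third 4-OHT or second EtOH library of the kinase-dead line, the first or second 4-OHT or the third EtOH library with null CDK19). Pdia5 did so at 0.52 to 0.57, without the first EtOH library of the kinase-dead line or any of the same 3 libraries with null CDK19. The median of the 40 genes was 0.24 with 34 above 0, beside 0.01 over all genes. For Ern2 the difference was 0.07 ± 0.14 (SE; adjusted p = 0.787), for Hspa5 0.33 ± 0.10 (SE; adjusted p = 0.0263), for Sec61b 0.25 and for Derl3 0.74 (adjusted p = 0.379). Line, genotype, count table and any difference of run cannot be told apart here.

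In IECs of mice 14 days after tamoxifen 0 of the 40 genes passed both cutoffs, against 1.5% of 15182 genes, and the count at an adjusted p under 0.05 (edgeR) was also 0, with 3 at an unadjusted p under 0.05, 1 DEG by DESeq2 and 0 by limma-voom. Ern2 had the widest negative change. It was at 23.2, 20.7 and 23.9 CPM in VillinCreERT2 and 13.4, 16.0 and 11.2 CPM in CDK8iIEC-KO/Cdk19-/- mice, groups that did not overlap (log2 fold change -0.74 ± 0.15 SE, adjusted p = 0.0729). Its adjusted p was 0.0342 without the second mutant library, 0.0299 without the second control library, 0.00258 with DESeq2 and 0.00052 with no filter on low counts.

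Derl3 had the widest positive change, from 0.713, 0.652 and 0.588 to 2.21, 2.22 and 0.835 CPM (log2 fold change 1.42 ± 0.44 SE, adjusted p = 0.158), opposite in sign to organoids at days 7 and 10, and it passed both cutoffs with no filter on low counts (adjusted p = 0.0469). The summed RNA of plasma and B cells, the antibody-secreting lineage, was also higher in the mutant IECs. Of the 9 of these genes tested 0 were DEGs, against 1.5% of all genes. The 10 plasma and B cell genes summed to 37.8, 385 and 37.4 CPM in the controls and to 1524, 1005 and 1116 CPM in the mutants. Each of the 10 had counts in every mutant library, while in the controls Tnfrsf17 was at 0 in the first and the third library and Iglc2 in the third. The control library with most of this RNA was at 0.652 CPM of Derl3. In organoids, where the sums did not exceed 1.90 CPM, Derl3 was lower after deletion at days 7 and 10, and its mean was higher at day 3, where it was not a DEG, and in Wnt3-CM, where it was not tested. Genes of pancreatic acinar cells, another secretory type, summed to 1.04, 5.49 and 0.749 CPM in the controls and to 54.8, 72.3 and 6.19 CPM in the mutants. Libraries are listed in the same order for Derl3 and for these sums. The part of either cell type in the IEC value of Derl3 was not tested. Sums of T cell genes (159 to 365.4 against 365.7 to 762 CPM) were higher in the mutants too, though the ranges nearly touched. Of 6 T cell, 6 mesenchyme and 5 acinar genes tested in IECs 0 were DEGs. Mesenchyme genes summed to 10.6 to 780.4 and 371 to 764 CPM. The 4 epithelial genes were lower in the mutants, at 8166 to 8472 against 7008 to 7556 CPM, with 0 of 4 DEGs, and their part was not tested.

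The folding genes did not pass the test in IECs. Hspa5 was at 437, 427 and 500.2 and 509, 542 and 531 CPM (log2 fold change 0.21 ± 0.10 SE, adjusted p = 0.297) and Sec61b at 43.0, 47.3 and 52.1 and 56.5, 38.1 and 52.7 CPM (log2 fold change 0.05 ± 0.16 SE, adjusted p = 0.886). The median of the 40 was 0.05 beside 0.00 over all genes. Their summed level was 8334 to 9287 CPM in controls and 7801 to 9015 CPM in mutants, while Paneth cell genes summed to 4085 to 6639.7 and 1029 to 2185 CPM and goblet cell genes to 12325 to 14728 and 5145 to 7387 CPM. P4hb alone had a mean of 3237 CPM in controls and 2663 CPM in mutants. Herpud1 shows the spread between these libraries, since it ranged from 149 to 235 CPM among the mutants.

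Genes of the pathway outside the 40 were followed as well. Xbp1, the target of IRE1, was not a DEG in any deletion, with log2 fold changes of 0.16 in CDK8iIEC-KO/Cdk19-/- organoids, -0.38, 0.00, 0.21 and 0.09 at days 3, 5, 7 and 10, 0.05 in Wnt3-CM, 0.02 with kinase-dead CDK19 and 0.09 in IECs. Whole-gene counts do not show how much of it was spliced. Agr2, the isomerase that goblet cells need to fold mucin, was at 285, 309 and 262 CPM in VillinCreERT2 and 187, 197 and 184 CPM in CDK8iIEC-KO/Cdk19-/- organoids (log2 fold change -0.59 ± 0.07 SE, adjusted p = 5.48e-08). It also fell at day 7 (-0.61), in Wnt3-CM (-0.67) and with kinase-dead CDK19 (-0.60). At day 10 (-0.54) and in IECs (-0.75, adjusted p = 0.0596) it missed a cutoff.

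Of the 14 genes of oxidative folding outside the 40, 2 fell in CDK8iIEC-KO/Cdk19-/- organoids and 1 rose, 3 fell at day 7, and 3 fell and 1 rose at day 10, where 19.4%, 18.3% and 15.8% of all genes were DEGs. The prolyl isomerase Fkbp11 fell at days 5 (-0.69), 7 (-1.17) and 10 (-1.11). The ER oxidase Ero1l rose at day 3 (0.66) and fell at days 5 (-0.59), 7 (-0.67) and 10 (-1.14) and in Wnt3-CM (-0.75), and it was also higher with CDK19 loss (0.63) and lower in C57BL/6 than in VillinCreERT2 organoids (-0.70). Of 16 genes of transport to the Golgi, Kdelr3, which returns escaped ER proteins, rose at day 3 (0.78), fell with the combined loss (-0.67) and at days 7 (-0.77) and 10 (-0.90), and was lower in C57BL/6 than in VillinCreERT2 organoids (-0.81). Sar1b, a GTPase of COPII vesicles, rose at day 10 (0.78). Of 14 genes of N-glycosylation Tusc3 (0.68), a subunit of the oligosaccharyl transferase, and Uggt2 (0.65), a relative of the glucosyl transferase that checks folding, rose at day 7, and the median of the list was -0.03 in CDK8iIEC-KO/Cdk19-/- organoids and -0.12 at day 10. For 11 genes of targeting to the ER these medians were 0.06 and -0.06, and for 10 further ERAD genes -0.03 and 0.05. With culture age in EtOH organoids, where 16% of all genes rose, 3 of the 11 targeting genes rose, among them Srp9 (1.13) of the signal recognition particle and Tram1 (0.93) beside the channel. So did 5 of the 10 ERAD genes, led by Vcp (1.01), the ATPase that pulls proteins out of the ER, and Selenos (0.97), and 4 of the 14 folding genes, led by Tmx1 (1.12). Of the N-glycosylation genes 2 rose and 1 fell, and of those of transport to the Golgi 4 rose and 1 fell.

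Of 11 UPR regulators outside the 40, 4 fell upon deletion in Wnt3-CM, where 16.9% of all genes were DEGs. Ddit3, the transcription factor CHOP, was at 88.3, 88.3 and 93.2 CPM with EtOH and 21.5, 14.6 and 18.9 CPM with 4-OHT (log2 fold change -2.30 ± 0.10 SE, adjusted p = 1.12e-11). Trib3, a target of CHOP, was at 283, 309 and 305 against 94.7, 73.1 and 78.0 CPM (log2 fold change -1.87 ± 0.08 SE, adjusted p = 9.47e-13). Ppp1r15a, which reverses the block of translation by PERK, changed by -1.34, and Atf4, the factor translated under PERK signalling, was another, from 743, 768 and 749 to 543, 456 and 483 CPM (-0.61). In standard medium at day 10 Ddit3 was at 7.85, 9.30 and 9.69 and 9.38, 9.34 and 8.87 CPM, in a table normalized separately. In the same Wnt3-CM libraries, Herpud1 was at 163, 170.1 and 174 and 181, 166 and 162 CPM. In CDK8iIEC-KO/Cdk19-/- organoids at day 7, Trib3 (-0.96) and Ddit3 (-0.67) fell, but in the time course at day 7 Trib3 (-0.42) and Ddit3 (-0.52) were not DEGs. Trib3 also fell with CDK8 loss (-0.62), rose with CDK19 loss (0.67) and differed between the control lines (-1.58). At day 3, 2 of the 11 fell and 2 rose, at day 5 Trib3 alone fell (-0.72), and Creb3l3, a relative of ATF6 from liver and gut, alone rose at day 10 (0.74) and with kinase-dead CDK19 (0.66).

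Over the 24 libraries of the time course, the genes whose levels ran most like the mean of Hspa5, Hsp90b1 and the isomerase Pdia4 were Desi2 (Pearson r = 0.937), Eif5 (0.935), Cdv3 (0.934), Mtdh (0.934) and Eea1 (0.925), out of 15444 genes and leaving out the 3 genes themselves. All libraries share the change with culture age, so these values are descriptive. Canx came next among the 40 genes, at rank 17, while Ern2 (-0.248) and Syvn1 (-0.242) ran weakly against the mean.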

How the data were processed

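Poly-A RNA of 57 libraries was analysed from 4 tables of raw counts per gene. According to the submitters' notes, the authors mapped 100 bp paired-end reads with STAR 2.5.2 to mm10 and counted them with featureCounts of Subread 1.6.3, and the deposited counts were not normalized. Strandedness is not given in the sources used here. Columns were tied to samples by their names, and 6 IEC columns were not used because the labels do not explain their letters, so the planned comparison of kinase-dead IECs was not made.

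Each table was fitted with edgeR 4.0.16 in R 4.3.3 (filterByExpr, TMM, robust quasi-likelihood F test, Benjamini-Hochberg adjustment over all genes tested), the 5 organoid groups together, the time course together, the others as pairs, and differences between responses as interaction contrasts, in joint fits of 12 libraries across tables. Genes that differed by more than 1.5-fold at an adjusted p under 0.05 were called DEGs. SE is the log2 fold change over the root of F, and CPM use TMM-scaled totals. Exon lengths and positions are from GENCODE vM21, promoters from RefSeq. The code was tested on simulated data.

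The 40 genes and all lists were chosen with earlier results of these data known. Values are given for Hspa5, Sec61b, Derl3 and Ern2 throughout, for DEGs among the 40 (up to 12 by size, and further ones by log2 fold change), and otherwise for the widest rise and fall. Other members named beside these were chosen after their values were seen. From the pathway lists come Xbp1, Atf4, Agr2 and up to 3 DEGs a list and direction.

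Alternatives were no filter, a minimum of 10 counts in each library, scaling by upper quartiles, DESeq2 1.42.0, limma-voom (limma 3.58.1), only the groups compared, the mean of both control lines, a replicate block and each library left out. Correlations of libraries with equal replicate numbers ran from -0.113 to 0.153 in the 5 groups. They ran from -0.226 to 0.353 in the time course and from -0.403 to 0.225 in IECs, which does not settle whether libraries were paired. Replicate numbers are those of the sample titles. Some column names carry other numbers, and pairing by those was not tested. No 2 libraries of a group agreed within sampling noise.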

Additional observations from a re-analysis of the deposited data

Results flagged for a closer look

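The response to deletion differed between days, media or CDK19 genotypes for the genes named here, by a test of the difference itself (edgeR interaction contrast). All values are differences of log2 fold changes, later minus earlier, Wnt3-CM minus standard medium, or kinase-dead minus null CDK19.

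Between days 3 and 10 the differences were 0.7 for Dnajb9, -1.12 for Dnajc10, 0.64 for P4hb, 0.69 for Herpud1, -1.65 for Derl3 and -0.64 for Ern2. Derl3, with at most 51 counts in any library, is the least precise of them (SE 0.52). Between days 3 and 5 they were -0.8 for Dnajc10, -0.6 for Pdia5 and 0.62 for Herpud1, and between days 5 and 7 they were -1.68 for Derl3 and -0.71 for Ern2. The DEGs of day 3, Herpud1, P4hb and Dnajc10, changed their response by day 5 or 10, and 7 of 8 enterocyte markers were lower at day 3 and 2 of 8 at day 5. The part of those cells was not tested.

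Between media they were 0.67 for Pdia6, 0.62 for Ssr1, 2.11 for Derl3 and -0.79 for Ern1. Derl3 had 3 to 12 counts in Wnt3-CM and passed the filter on low counts only through standard medium, so that its value supports nothing. Between kinase-dead and null CDK19 they were 0.62 for Creld2 and 0.62 for Pdia5. The comparisons of media and of CDK19 genotypes cross tables, so that the table, with any difference of run, cannot be told apart from either.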

How the results depend on the processing

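No gene that passed both cutoffs and was followed through the alternatives changed its direction, limma-voom and the mean of both control lines included. Among the DEGs with culture age Hyou1, Creld2, Canx, Sec11a and Derl2 were not followed. Values that missed a cutoff did turn sign, for Derl3 at day 5 and between control lines, Hspa5 with CDK8 loss and at day 5, and Sec61b with the combined loss, kinase-dead CDK19 and in IECs, among others. With at least 10 counts demanded of each library Derl3 was not tested, and the count of lower genes was 1 for the combined loss, days 3, 7 and 10, the step from day 5 to 7 and kinase-dead CDK19. Derl3 also dropped out of the lower genes for day 3 to 10 and the higher genes between media. With upper quartile scaling, which shifted the median of all genes by up to 0.102, it was 1 at day 3, the count of higher genes between kinase-dead and null CDK19 was 1, and the median of the 40 genes was -0.05 between control lines and 0.33 for culture age. Fitting only the groups compared gave 1 lower gene at day 3 and 1 for the step from day 5 to 7. Without a filter 0 genes rose in Wnt3-CM, and 1 fell and 1 rose in IECs. DESeq2 gave 1 lower gene with kinase-dead CDK19 and 1 in IECs. P4hb at day 3 was under 1.5-fold in 3 of these fits (-0.58, -0.56 and -0.57), Sdf2l1 in Wnt3-CM without a filter (0.58) and Creld2 between CDK19 genotypes with upper quartiles (0.58). Leaving out single libraries gave 0 to 1 lower genes between control lines, 1 to 2 at day 3, 1 to 2 lower and 0 to 1 higher at day 10, 3 to 4 in either direction for day 3 to 10, 1 to 2 lower and 0 to 2 higher for day 3 to 5, 1 to 2 lower for day 5 to 7, 0 to 3 higher for day 7 to 10, 0 to 2 higher in Wnt3-CM, 2 to 3 higher between media, 1 to 2 lower with kinase-dead CDK19, 0 to 2 higher between CDK19 genotypes and 0 to 1 lower in IECs. The IEC library of the controls with most plasma cell RNA is among them, and Ern2 was then at -0.79. With a block on the replicate numbers of the sample titles, the counts stayed at 2 lower for the combined loss and 0 in IECs. All other counts of the 40 genes also stayed the same. No paired analysis was possible for Wnt3-CM, kinase-dead CDK19 and the joint fits because their column numbers are not tied to replicate labels. A spacer of 8 to 10 bases put an ERSE in 0.183% of all windows. Derl3, with 3 to 51 counts per library, is limited by depth. Where it was called lower after deletion, it passed the filter on low counts only through groups where it was higher. Those calls are not support.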
